A study of Mus musculus with 8 samples.

Results

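Keratins are the proteins of the intermediate filaments of epithelial cells, and the keratin gene family was described here in esophagi of MGL KO and WT mice. Its members were taken as every symbol of the deposited count table that reads Krt followed by a number and, in some genes, a letter, so that keratin-associated proteins were left out. This rule used no measured value and found 55 of the 32849 listed symbols. A count in at least 1 of the 8 libraries was given for 48 of them, and 24 had enough counts for a test between the genotypes. The other 24 counted keratins were described by their counts, and 7 (Krt28, Krt33b, Krt42, Krt71, Krt72, Krt81 and Krt83) had no count in any library.

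A keratin filament is built from pairs of an acidic type I chain and a basic type II chain, and the genes of the family sit in 2 clusters, with 27 of the 55 on chromosome 11 and 28 on chromosome 15 of GRCm39. Epithelia are told apart by the pairs they make. Basal cells of the squamous lining of the esophagus make KRT5 and KRT14, with KRT15 in many of them, and cells that leave the basal layer switch to KRT4 and KRT13. KRT6 and KRT17 are known as keratins of stressed, wounded or rapidly renewing squamous epithelium, whereas KRT8, KRT18, KRT7 and KRT19 belong to simple and glandular epithelia such as airway, ducts and mesothelium.

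Frozen esophagi of mice without induced disease, in 4 MGL KO and 4 WT libraries, were the source of the RNA, which was enriched by poly(A) selection. Monoacylglycerol lipase (MGL, gene Mgll) degrades the endocannabinoid 2-arachidonoylglycerol. Its deletion was global, so it was not restricted to the epithelium, and the MGL KO mice were bred in-house with WT littermates. The study's methods give both sexes and an age of 8 to 12 weeks for its mouse experiments, and another passage gives 10 to 14 weeks for esophagi measured for thickness in these genotypes. Neither is given library by library in the sources used here. Nor do they state the deleted part of the gene or any pooling of animals.

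Some keratins are nearly identical over stretches of their coding sequence, so that short reads from these stretches cannot be assigned to a single gene. Because the comparisons turned on Krt17 and Krt6a, the longest run that Krt17 shares with Krt14 and that Krt6a shares with Krt6b is shown, from GENCODE release 39 transcripts on GRCm39 and in the 5′ to 3′ direction of the coding strand. Capitals mark the identical run, the 10 lower-case bases at each end mark where the genes part, and coding positions are counted from 1 at the first base of the start codon. Krt17 and the basal keratin gene Krt14 shared 71 bases, positions 1105 to 1175 of Krt17 (exon 6 of 8, chr11:100148265-100148335, minus strand) and 1216 to 1286 of Krt14 (exon 6 of 8, chr11:100094940-100095010, minus strand).
Krt17: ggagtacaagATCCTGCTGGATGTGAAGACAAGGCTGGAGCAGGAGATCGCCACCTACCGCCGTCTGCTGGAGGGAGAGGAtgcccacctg
Krt14: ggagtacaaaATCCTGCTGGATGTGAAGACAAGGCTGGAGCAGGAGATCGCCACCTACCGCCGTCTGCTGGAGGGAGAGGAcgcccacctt

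Krt6a and its paralog Krt6b shared a longer run of 280 bases at positions 34 to 313 of both genes (exon 1 of 9, chr15:101602371-101602650 and chr15:101588346-101588625, minus strand).
Krt6a: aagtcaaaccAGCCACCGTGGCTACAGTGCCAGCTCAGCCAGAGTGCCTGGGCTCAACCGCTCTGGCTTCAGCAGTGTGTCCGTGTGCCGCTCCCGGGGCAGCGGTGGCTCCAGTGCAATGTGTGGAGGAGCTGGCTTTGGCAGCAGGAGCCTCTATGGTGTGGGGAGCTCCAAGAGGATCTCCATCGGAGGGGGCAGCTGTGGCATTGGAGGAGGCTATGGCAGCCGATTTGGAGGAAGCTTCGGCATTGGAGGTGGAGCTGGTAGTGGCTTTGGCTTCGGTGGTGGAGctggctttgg
Krt6b: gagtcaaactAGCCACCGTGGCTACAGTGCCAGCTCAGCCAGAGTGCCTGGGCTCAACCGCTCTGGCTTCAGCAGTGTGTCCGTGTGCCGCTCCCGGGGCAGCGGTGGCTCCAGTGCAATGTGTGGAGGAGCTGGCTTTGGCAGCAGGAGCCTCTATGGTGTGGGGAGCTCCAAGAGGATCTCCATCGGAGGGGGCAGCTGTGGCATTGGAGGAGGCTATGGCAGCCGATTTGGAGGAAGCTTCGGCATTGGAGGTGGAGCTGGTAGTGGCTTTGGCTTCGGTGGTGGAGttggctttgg

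Of all 50-base windows of the Krt6a coding sequence, 60.4% were found letter for letter in that of Krt6b, whereas 4.40% of the windows of Krt17 were found in Krt14, 0.480% in Krt16 and 0.320% in Krt42. At 100 bases, 41.2% of the windows of Krt6a were found in Krt6b and none of Krt17 in Krt14. Counts of Krt6a and Krt6b are therefore uncertain as a split between the paralogs. Krt6a was not compared with other type II keratins such as Krt5, which had 15098 to 37557 counts per library. Counts of Krt17 carry an uncertainty too, since Krt14 had 5025 to 15219 counts per library against 24 to 231 for Krt17. The read length is not given in the sources used here. How the authors' counting treated such reads is not given in the sources used here. In the annotation, Krt5, Krt6a, Krt6b, Krt7, Krt8, Krt10, Krt19, Krt32 and Krt80, of the keratins given with values, also overlap another annotated gene on the opposite strand, and the use of strand in counting is not given either.

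The deposited counts summed to 13.5 to 17.1 M per library. Values are given as normalized CPM, counts brought to a common library size with edgeR's TMM factors. A count of 0 allows a level of up to 3 counts, which equaled 0.167 to 0.271 CPM. Mgll, the deleted gene, was at 12.6, 15.97, 13.1 and 13.2 CPM in MGL KO replicates 1 to 4 and at 83.3, 66.6, 88.3 and 86.7 CPM in the WT libraries, with no overlap (log2 fold change -2.57, SE 0.13, adjusted p = 0.000133 by edgeR's quasi-likelihood test). Reads on the rest of the locus were not separated from reads on the deleted part, and the MGL KO mean stood at 16.9% of the WT mean. Of the 14864 genes tested, 7 passed an adjusted p of 0.05 (0.0471%), Mgll among them, and 3 of the 7 were higher in MGL KO (0.0202%). A few libraries stood apart in epithelial genes and are named beside the keratins they touch, namely MGL KO 2 and WT 3 with low squamous genes, MGL KO 4 with airway genes, and WT 1 with mesothelial genes. Nothing states that the mice came from separate litters or batches, and p-values measure the spread between these libraries only.

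The squamous keratins made up nearly all of the family's counts. Krt13, Krt4, Krt5, Krt15 and Krt14 together took between 94.5% (MGL KO 4) and 98.5% (MGL KO 1) of the keratin counts of a library. All keratins took 1.71, 0.384, 1.20 and 1.14% of the counts of MGL KO replicates 1 to 4 and 1.08, 1.79, 0.512 and 1.07% of the WT counts. The lowest and the highest share of each group thus differed by more than the genotypes did. On CPM per kilobase of exon, the scale on which genes can be compared, the mean levels over the 8 libraries were 2379 for Krt13, 1211 for Krt4, 843 for Krt5, 695 for Krt15, 347 for Krt14 and 36.4 for Krt78. The suprabasal pair was thus the most abundant.

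**Figure D1:**
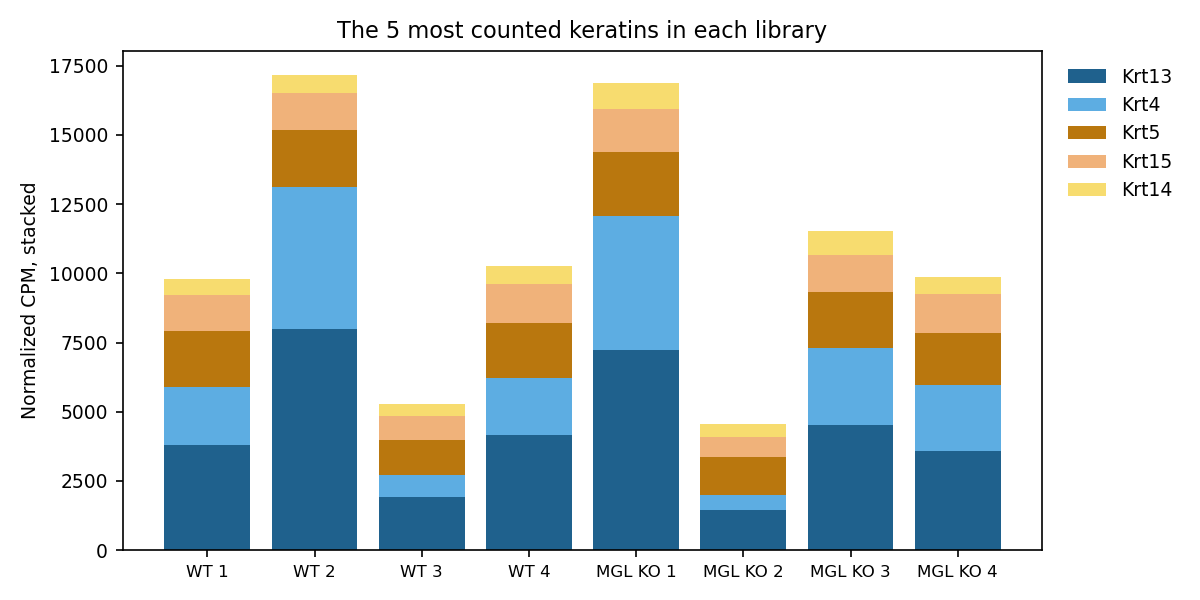
Stacked normalized CPM (vertical axis, linear) of the 5 most counted keratin genes in each of the 8 libraries (horizontal axis). The columns of MGL KO 2 and WT 3 are the shortest, and most of their lost height is Krt13 and Krt4.

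Krt13, the type I keratin of the suprabasal layers, was at 7216, 1464, 4529 and 3595 CPM in MGL KO replicates 1 to 4 and at 3798, 7973, 1919 and 4169 CPM in WT replicates 1 to 4. Its type II partner Krt4 was at 4870, 546, 2781 and 2369 CPM in MGL KO and at 2080, 5152, 796 and 2062 CPM in WT. Both genes were highest in WT 2 and MGL KO 1 and lowest in MGL KO 2 and WT 3, so the groups overlapped over nearly their whole range. The log2 fold change of MGL KO over WT was -0.09 (SE 0.52, adjusted p = 0.967) for Krt13 and 0.07 (SE 0.67, adjusted p = 0.980) for Krt4. The direction of both turned with the library left out, from -0.48 to 0.35 for Krt13 and from -0.41 to 0.68 for Krt4.

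The basal keratins spread far less. Krt5, the type II chain of basal cells, was at 2300, 1362, 2025 and 1894 CPM in MGL KO and at 2036, 2037, 1257 and 1992 CPM in WT (log2 fold change 0.05, SE 0.22, adjusted p = 0.957). Krt15 was at 1564, 732, 1343 and 1385 CPM in MGL KO and at 1306, 1369, 873 and 1386 CPM in WT (0.03, SE 0.25, adjusted p = 0.979). MGL KO 2 and WT 3 were again the low libraries of each group. Krt14, the type I partner of Krt5, was at 932, 453, 835 and 639 CPM in MGL KO and at 587, 652, 453 and 656 CPM in WT, with overlapping groups (0.28, SE 0.23, adjusted p = 0.734). Leaving out 1 library gave log2 fold changes for Krt14 between 0.13 (without MGL KO 1) and 0.45 (without MGL KO 2). Without both MGL KO 2 and MGL KO 4, a choice made after the data were seen, it was 0.59 (adjusted p = 0.624).

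The summed levels of squamous markers that are not keratins were lowest in the same libraries, though not for every gene. The 14 genes listed for differentiated squamous epithelium, led by Tgm3, Krtdap and Ecm1, summed to 2148, 308, 1415 and 942 CPM in MGL KO and to 1037, 2284, 582 and 1168 CPM in WT. The 8 basal genes, led by Col17a1, Itgb4 and Klf5, summed to 1203, 753, 1049 and 1120 CPM in MGL KO and to 1147, 1215, 985 and 1168 CPM in WT. Klf5 was an exception, at 215 CPM in MGL KO 2 and 170 CPM in WT 3, neither the lowest of its group. The 11 skeletal muscle genes, led by Acta1, Myh1 and Tnnt3, went the other way as a sum, highest in MGL KO 2 (89453 CPM) and WT 3 (78267 CPM). Not every muscle gene followed. Atp2a1 was at 5729 CPM in MGL KO 2 and 6603 CPM in WT 3, and Ryr1 at 2302 and 2377 CPM, none the highest of its group. Of the differentiated squamous genes, Rhcg was at 0 in every library and Ivl was at 0 to 0.799 CPM. In these bulk samples, fewer cells of a type and less RNA per cell cannot be told apart. What part the share of epithelium in each piece of tissue had in the keratin levels was not tested.

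**Figure D2:**
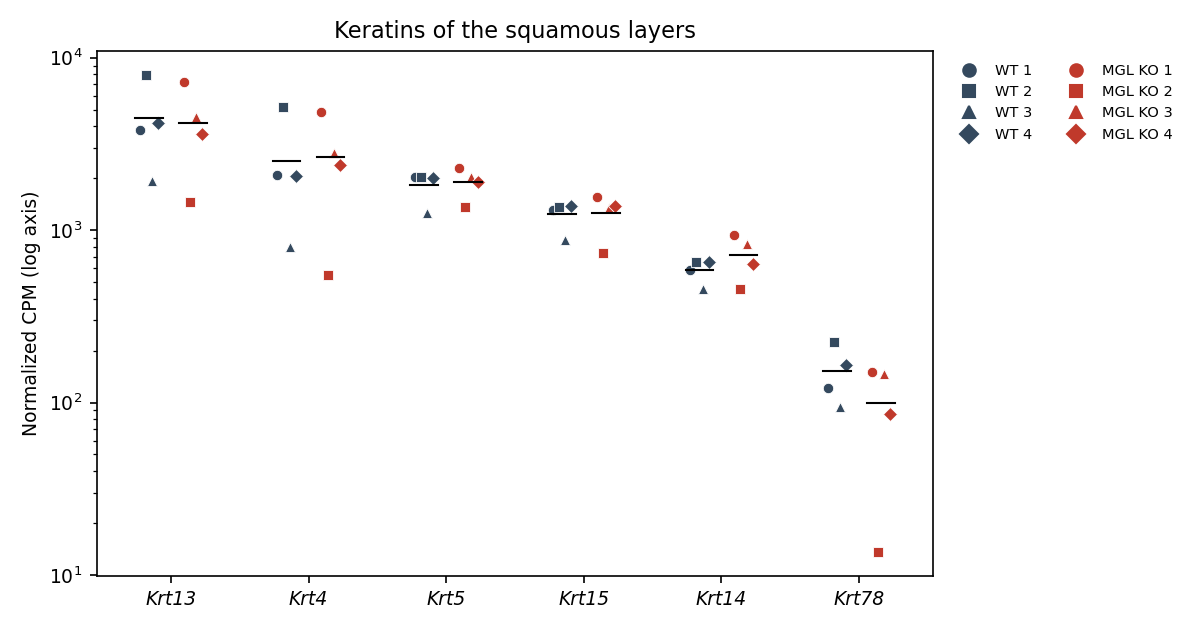
Normalized CPM (vertical log axis) of 6 squamous keratin genes (horizontal axis), 1 symbol per library, WT in grey and MGL KO in red, with black lines at the group means. MGL KO 2 and WT 3 are the lowest libraries of their groups for each of the 6 genes, and the groups overlap for all 6.

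Krt78, a type II keratin of differentiated squamous cells, was at 150, 13.6, 147 and 85.5 CPM in MGL KO and at 122, 224, 94.7 and 166 CPM in WT. MGL KO 2 was far below all other libraries, and the log2 fold change of -0.61 (SE 0.60, adjusted p = 0.772) became -0.25 without it. Leaving out MGL KO 1 gave -0.88, and the alternative nearest to no change gave -0.028. Of the 4 tested keratins of cornifying epithelium, 2 were higher and 2 lower in MGL KO. Krt10, the type I keratin of the spinous layer of skin, was at 5.02 to 6.29 CPM in MGL KO and at 5.36 to 6.65 CPM in WT, the smallest standard error of the tested keratins (-0.12, SE 0.18, adjusted p = 0.853). Krt80 was at 23.2, 10.1, 18.6 and 22.2 CPM in MGL KO and at 14.2, 28.5, 7.17 and 14.3 CPM in WT (0.21, SE 0.40, adjusted p = 0.889). Like Krt13 and Krt4 it was highest in WT 2, and it was lowest in WT 3.

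Among the keratins of stress and wounding, Krt17 and Krt6a had higher means in MGL KO, with positive log2 fold changes whichever library was left out. Neither passed the adjusted test, and the groups overlapped for Krt6a. Krt17 was at 6.80, 3.70, 5.86 and 12.98 CPM in MGL KO replicates 1 to 4, from 111, 41, 95 and 231 counts. In WT replicates 1 to 4 it was at 2.12, 2.06, 2.63 and 1.57 CPM, from 38, 36, 40 and 24 counts. All 4 MGL KO libraries lay above all 4 WT libraries, and Krt17 was the only tested keratin of which this was true (4.17% of the tested keratins, against 6.02% of all genes tested in either direction and 2.72% in this direction). The group levels were 7.33 ± 3.98 CPM in MGL KO and 2.09 ± 0.44 CPM in WT (SD, n = 4 each).

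The log2 fold change of Krt17 was 1.81 (SE 0.39). By edgeR's quasi-likelihood test the unadjusted p was 0.00118 and the p adjusted over all genes tested was 0.302, so Krt17 did not pass the threshold. By the exact test, the kind of test the study's methods name, its adjusted p was 0.0172 on the filtered genes (0.437% of them called) and 0.0693 on all genes with a count (0.185% called), so this call depended on the filter. The adjusted p was 0.0030 by DESeq2 (0.922% called) and 0.0489 by limma-voom with sample quality weights (0.168% called). Over all alternatives it ran from 0.0030 to 0.923. The call thus depended on the test, whereas the direction was kept in every alternative run. Leaving out each library in turn gave log2 fold changes between 1.38 (without MGL KO 4) and 2.03 (without MGL KO 2). The highest level, in MGL KO 4, came from the library that also held 11569 CPM of airway secretory genes, against at most 71.6 CPM in the others. Without both MGL KO 2 and MGL KO 4 the log2 fold change was 1.59 (adjusted p = 0.245).

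Krt6a, a type II partner of KRT17 and KRT16, was at 13.3, 2.98, 8.39 and 9.22 CPM in MGL KO and at 3.35, 3.03, 0.986 and 2.93 CPM in WT. Of the MGL KO libraries, 3 lay above all WT libraries, and MGL KO 2 lay within the WT range. The log2 fold change was 1.72 (SE 0.49, unadjusted p = 0.00691, adjusted p = 0.478 by edgeR's quasi-likelihood test). It stayed between 1.42 (without MGL KO 1) and 2.00 (without MGL KO 2) when 1 library was left out, and its adjusted p was 0.0415 with the mean of the basal squamous list as a covariate, a fit that called 0.108% of all genes. With the mean of the skeletal muscle list as a covariate (0.155% called) it was 0.197.

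Krt6b was named after its values were seen, because of the run it shares with Krt6a. It was at 8.27, 0.271, 3.70 and 1.52 CPM in MGL KO and at 0.669, 1.88, 0.526 and 1.24 CPM in WT, so that MGL KO 1 was high and the groups overlapped (1.67, SE 0.83, adjusted p = 0.620). Without MGL KO 1 the log2 fold change was 0.77. The counts of Krt6a and Krt6b were also summed, an alternative chosen after the data were seen that does not depend on their split. Shared reads that the counting may have left out of both genes would stay missing from the sum. The summed levels were 21.6, 3.25, 12.1 and 10.7 CPM in MGL KO and 4.02, 4.91, 1.51 and 4.17 CPM in WT. The log2 fold change of the sum was 1.70 (SE 0.54, adjusted p = 0.498), close to that of Krt6a alone.

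Krt16, a type I keratin known from wounded epidermis, had 5, 1, 3 and 6 counts in MGL KO and 2, 0, 0 and 2 counts in WT, too few for a test. On CPM per kilobase, the mean levels over the 8 libraries were 2.82 for Krt17 and 2.28 for Krt6a, against 347 for Krt14 and 843 for Krt5. The stress keratins were thus scarce transcripts in all libraries.

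**Figure D3:**
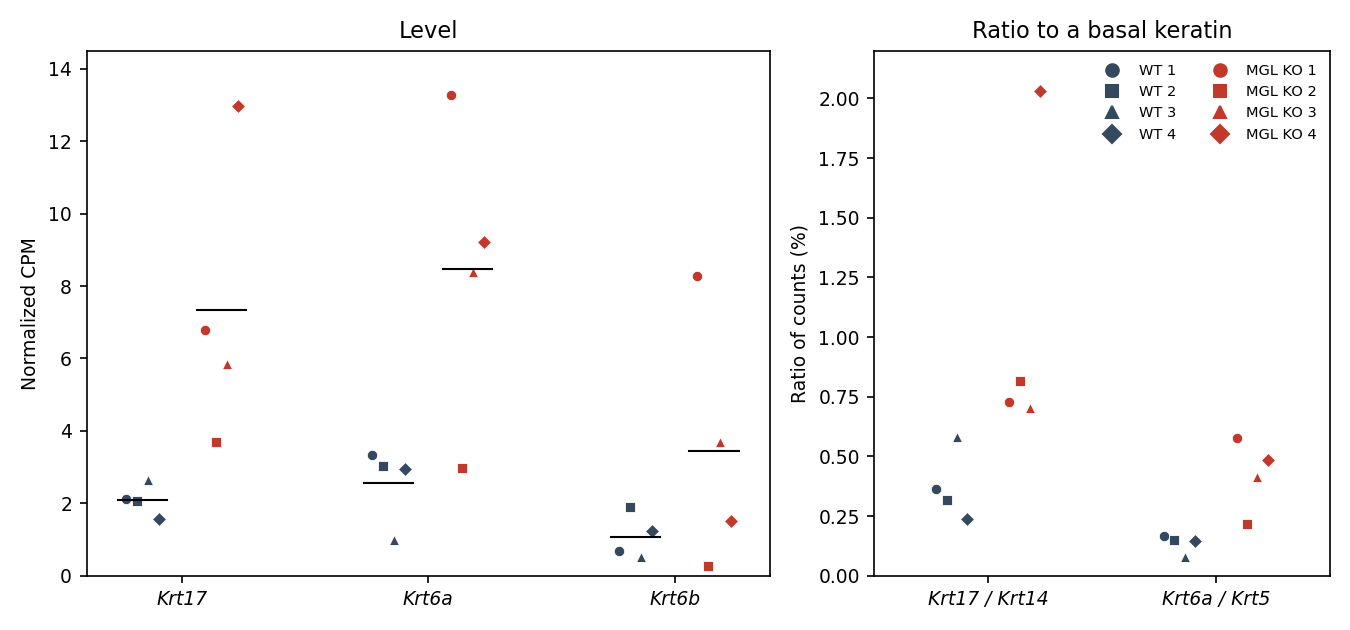
Left, normalized CPM (linear axis) of Krt17, Krt6a and Krt6b in each library, with black lines at the group means. Right, counts of Krt17 as a percentage of those of Krt14 and of Krt6a as a percentage of those of Krt5 (linear axis), where every MGL KO library (red) lies above every WT library (grey), closest at 0.701% against 0.580% for Krt17 and 0.219% against 0.164% for Krt6a.

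Ratios of keratins within a library do not depend on its size. How far ratios of 2 epithelial keratins depend on how much epithelium a library holds was not tested. Those of Krt4 to Krt5 and of Krt13 to Krt14 were lowest in MGL KO 2 and WT 3, the libraries with low squamous genes. Krt17 amounted to 0.729, 0.816, 0.701 and 2.03% of the counts of the basal keratin Krt14 in MGL KO and to 0.361, 0.315, 0.580 and 0.238% in WT. All MGL KO ratios were above all WT ratios, the log2 difference was 1.44 (2.71-fold), and the two-sided exact permutation test gave p = 0.0286, the smallest that 4 against 4 libraries allow. Krt6a amounted to 0.578, 0.219, 0.414 and 0.487% of the counts of Krt5 in MGL KO and to 0.164, 0.149, 0.078 and 0.147% in WT. Here MGL KO 2, low in Krt6a itself, also lay above the WT libraries. The log2 difference was 1.62 (3.08-fold, exact permutation p = 0.0286). Adjusted over the 8 ratios compared, both p-values became 0.114, so neither ratio passed 0.05. The denominator Krt14 itself had the higher mean in MGL KO, 715 ± 213 CPM against 587 ± 94.6 CPM (SD, n = 4 each), and Krt5 had means of 1895 and 1831 CPM.

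The other ratios did not separate the genotypes. Krt15 over Krt14 was 1.68, 1.62, 1.61 and 2.17 in MGL KO and 2.23, 2.10, 1.92 and 2.11 in WT, with MGL KO 4 inside the WT range (log2 difference -0.25, exact permutation p = 0.114, adjusted 0.286). Without MGL KO 4, picked as the library that made the groups overlap, they did not overlap (log2 difference -0.35). The unadjusted exact permutation p of 0.0286 was then the smallest possible and follows from that choice of library. Krt5 over Krt14 differed by -0.19 on the log2 scale (exact permutation p = 0.143) and Krt13 over Krt14, suprabasal over basal, by -0.37 (exact permutation p = 0.429). Krt4 over its partner Krt13 was 0.675, 0.373, 0.614 and 0.659 in MGL KO and 0.548, 0.646, 0.415 and 0.495 in WT, lowest in MGL KO 2 and WT 3. Krt4 over Krt5 ranged from 0.401 in MGL KO 2 to 2.53 in WT 2, a wider relative range than those of the other basal and suprabasal pairs. Summed over the family on CPM per kilobase, type I over type II transcripts stayed at 1.58, 1.63, 1.63 and 1.56 in MGL KO and at 1.63, 1.62, 1.84 and 1.78 in WT, given without a test.

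The simple epithelial keratins Krt8, Krt18, Krt7 and Krt19 had the highest fold changes of the 24 tested keratins in the quasi-likelihood fit, an order that did not hold with limma-voom quality weights (1.27, 0.90, 1.06 and 0.18, against 1.80 for Krt17). Those of Krt8 and Krt18 rested on MGL KO 4 and MGL KO 2, and those of Krt7 and Krt19 on MGL KO 4. Krt8, the type II chain of simple epithelia, was at 2.33, 43.6, 0.925 and 129 CPM in MGL KO and at 4.52, 1.60, 0.855 and 0.587 CPM in WT. Its type I partner Krt18 was at 1.35, 16.2, 1.60 and 60.2 CPM in MGL KO and at 3.18, 1.43, 0.657 and 1.17 CPM in WT. MGL KO 4 and MGL KO 2 were far above all other libraries for both partners, while MGL KO 1 and 3 lay within the WT range. The log2 fold changes were 4.51 (SE 1.44, unadjusted p = 0.0120, adjusted p = 0.499) for Krt8 and 3.61 (SE 1.19, unadjusted p = 0.0142, adjusted p = 0.503) for Krt18. Leaving out 1 library gave 3.01 (without MGL KO 4) to 5.41 (without WT 1) for Krt8 and 1.95 (without MGL KO 4) to 4.18 (without WT 1) for Krt18. Without both MGL KO 2 and MGL KO 4 the values turned to -0.23 and -0.13.

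The promoters of this pair, whose genes are read from opposite strands and whose levels were highest in the same libraries, are shown from RefSeq, whose table on GRCm38.p6 had entries for 36 of the 55 keratin genes. Each holds 250 bases before and 50 bases from the start of the gene, and capitals mark TATAAA on either strand, where overlapping matches run together. The Krt8 window (chr15:102004293-102004592, minus strand) held it, and these letters were not in the Krt18 window (chr15:102027966-102028265, plus strand). Of all 32851 promoter windows of this length, 13.6% held TATAAA.
Krt8: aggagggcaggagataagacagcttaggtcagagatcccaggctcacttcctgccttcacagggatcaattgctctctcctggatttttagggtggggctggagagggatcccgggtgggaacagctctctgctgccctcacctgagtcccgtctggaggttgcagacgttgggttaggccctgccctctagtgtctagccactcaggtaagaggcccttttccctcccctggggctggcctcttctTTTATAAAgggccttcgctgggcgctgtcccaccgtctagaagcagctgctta
Krt18: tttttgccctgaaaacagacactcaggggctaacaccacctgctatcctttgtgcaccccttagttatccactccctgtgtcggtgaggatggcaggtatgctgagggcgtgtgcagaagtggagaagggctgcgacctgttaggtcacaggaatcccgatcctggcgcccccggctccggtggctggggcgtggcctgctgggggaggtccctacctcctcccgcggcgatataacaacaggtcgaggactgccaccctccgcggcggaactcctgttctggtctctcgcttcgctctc

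Krt7, a type II keratin of glandular and simple epithelia, was at 4.04, 1.44, 1.97 and 60.2 CPM in MGL KO and at 4.80, 1.71, 0.657 and 1.96 CPM in WT. Krt19, the type I keratin of ducts, airway and mesothelium, was at 5.20, 1.26, 3.64 and 158 CPM in MGL KO and at 22.7, 6.68, 1.05 and 3.85 CPM in WT. For these genes only MGL KO 4 stood out in its group, MGL KO 2 was low, and WT 1 was the highest WT library. The log2 fold change of Krt7 was 2.88 (SE 1.23, unadjusted p = 0.0436, adjusted p = 0.571), 0.13 without MGL KO 4 and 3.55 without WT 1. That of Krt19 was 2.29 (SE 1.46, adjusted p = 0.675), -1.33 without MGL KO 4 and 3.43 without WT 1. Krt23, another type I keratin listed with the simple ones, followed the squamous order instead, at 9.43, 0.993, 6.23 and 9.05 CPM in MGL KO and 7.36, 15.5, 3.62 and 9.19 CPM in WT (-0.47, SE 0.62, adjusted p = 0.83). Its log2 fold change was -0.059 without WT 2, -0.11 without MGL KO 2 and -0.95 with the skeletal muscle covariate. Krt20 was at 0.541 CPM (6 counts) in MGL KO 2 and at 0.225 CPM or less elsewhere.

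Airway markers other than Tppp3 were highest in MGL KO 4, as were Krt8, Krt18, Krt7 and Krt19. The mesothelial and gastric lists did not follow these keratins in every library. The 8 airway secretory genes, led by Bpifa1, Scgb1a1 and Ltf, summed to 71.6, 2.17, 2.65 and 11569 CPM in MGL KO and to 1.64 to 3.88 CPM in WT. Of the 14 airway ciliated genes, Tppp3 was abundant in all libraries, at 886, 856, 799 and 768 CPM in MGL KO and at 405, 444, 712 and 472 CPM in WT. Its groups did not overlap (log2 fold change 0.70, SE 0.19, adjusted p = 0.462). The other 13 summed to 848 CPM in MGL KO 4 and to at most 24.5 CPM in any other library. Foxj1, the master regulator of motile cilia, was at 228 CPM in MGL KO 4 and at 1.65 CPM or less elsewhere. The 6 mesothelial genes, led by Msln, Upk3b and Bnc1, summed to 30.0, 12.0, 31.4 and 175 CPM in MGL KO and to 196, 64.4, 5.59 and 40.2 CPM in WT. Msln was highest in MGL KO 4 (138 CPM) and Upk3b in WT 1 (98.5 CPM). Without Msln the sums were at most 37.0 CPM in MGL KO and at most 158 CPM in WT. MGL KO 2 had 2.17 CPM of the airway secretory list and 12.0 CPM of the mesothelial list, so neither list moved with its Krt8 and Krt18. Of the 6 gastric gland genes, Atp4b and Tff1 were at 0 in all libraries and Atp4a was at 0.180 CPM or less. Muc5ac, also a mucin gene of the airway, was at 47.0 CPM in MGL KO 4 and at most 0.261 CPM elsewhere. Gkn1 and Gkn2 were highest in WT 3, at 4.34 and 3.42 CPM, against at most 0.735 and 0.245 CPM in the other libraries. The part of other epithelia in the keratin differences of MGL KO 4 was not tested.

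**Figure D4:**
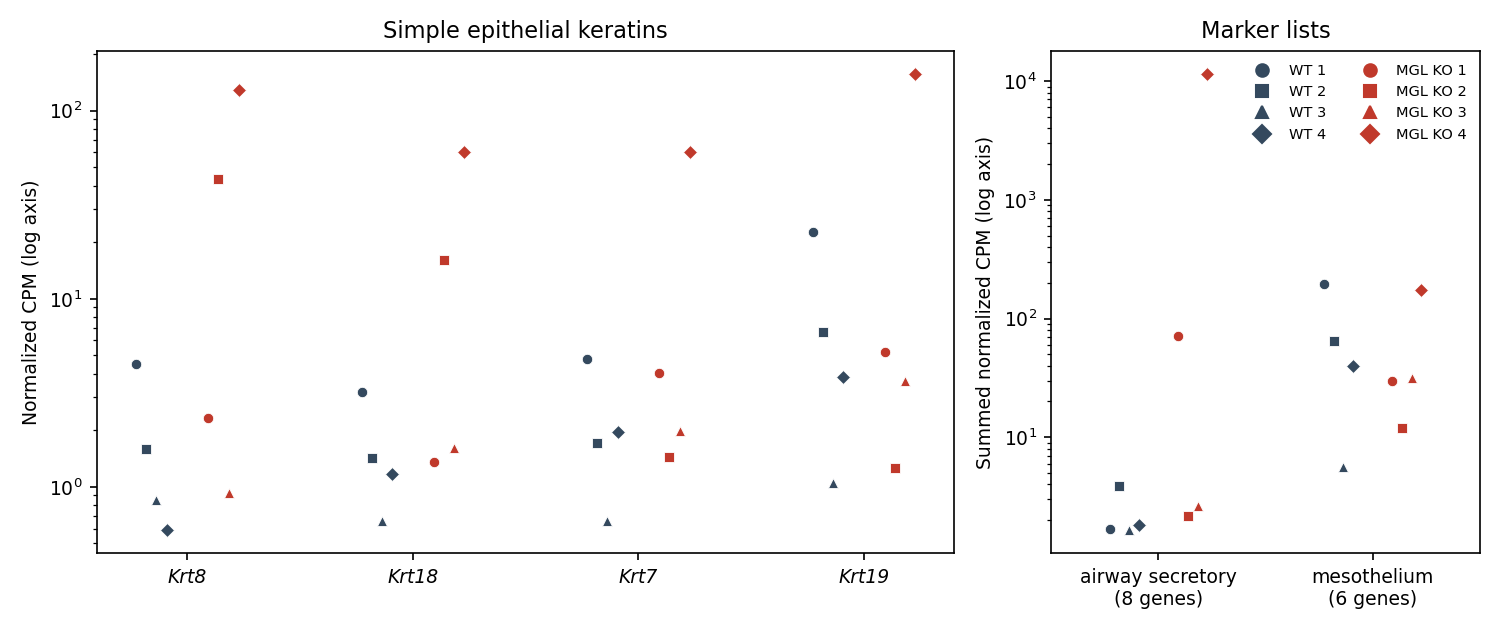
Left, normalized CPM (log axis) of 4 simple epithelial keratin genes in each library; right, summed normalized CPM (log axis) of the 8 airway secretory and 6 mesothelial marker genes. MGL KO 4 (red diamond) is highest for the 4 keratins and the airway list, MGL KO 2 (red square) is second for Krt8 and Krt18 alone, and WT 1 (grey circle) is second for Krt7 and Krt19 and highest for the mesothelial list.

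The keratins of hair and hard epithelia were scarce, and the 4 tested ones had lower means in MGL KO, with overlapping groups and adjusted p-values of 0.629 to 0.898. Krt32, a type I hair keratin, had the highest level, at 8.02, 3.16, 5.86 and 4.38 CPM in MGL KO and at 5.80, 10.05, 3.35 and 5.22 CPM in WT (-0.19, SE 0.39, adjusted p = 0.898). Of the 16 keratins in this class, 13 had a count and 4 were tested, all with log2 fold changes below 0 and a median of -0.50, although that of Krt32 turned to 0.16 without WT 2 and to 0.18 without MGL KO 2 and 4. Krt87 was the most counted keratin that could not be tested, with 45 counts in MGL KO 4 and at most 4 elsewhere. The 9 keratins of the hair root sheath gave 6 genes with a count and none that could be tested. Of the 24 counted but untested keratins, 18 had at most 10 counts over all 8 libraries together.

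Across the 24 tested keratins, 16 had higher and 8 lower means in MGL KO by the fitted log2 fold change, with a median of 0.21 against 0.02 over all genes tested. No keratin passed an adjusted p of 0.05 in edgeR's quasi-likelihood test, against 0.0471% of all genes, and the lowest adjusted p was 0.302, for Krt17. An unadjusted p under 0.05 was reached by 8.65% of all genes in either direction. There were 5 keratins higher in MGL KO, Krt17, Krt6a, Krt8, Krt18 and Krt7 with it (20.8%, against 4.35% of all genes in this direction), and none lower (against 4.29%). Of these, Krt8 and Krt18 rest on MGL KO 4 and MGL KO 2, and Krt7 rests on MGL KO 4. The exact test on filtered genes (0.437% of all genes called), DESeq2 (0.922%) and limma-voom with quality weights (0.168%) called 1 keratin each, in each case Krt17, and the exact test on all counted genes (0.185%) called none. Of the lowest levels, 12 of the 24 keratins had theirs in MGL KO 2 and 7 in WT 3, whereas 8 had their highest level in WT 2 and 6 each in MGL KO 1 and MGL KO 4.

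**Figure D5:**
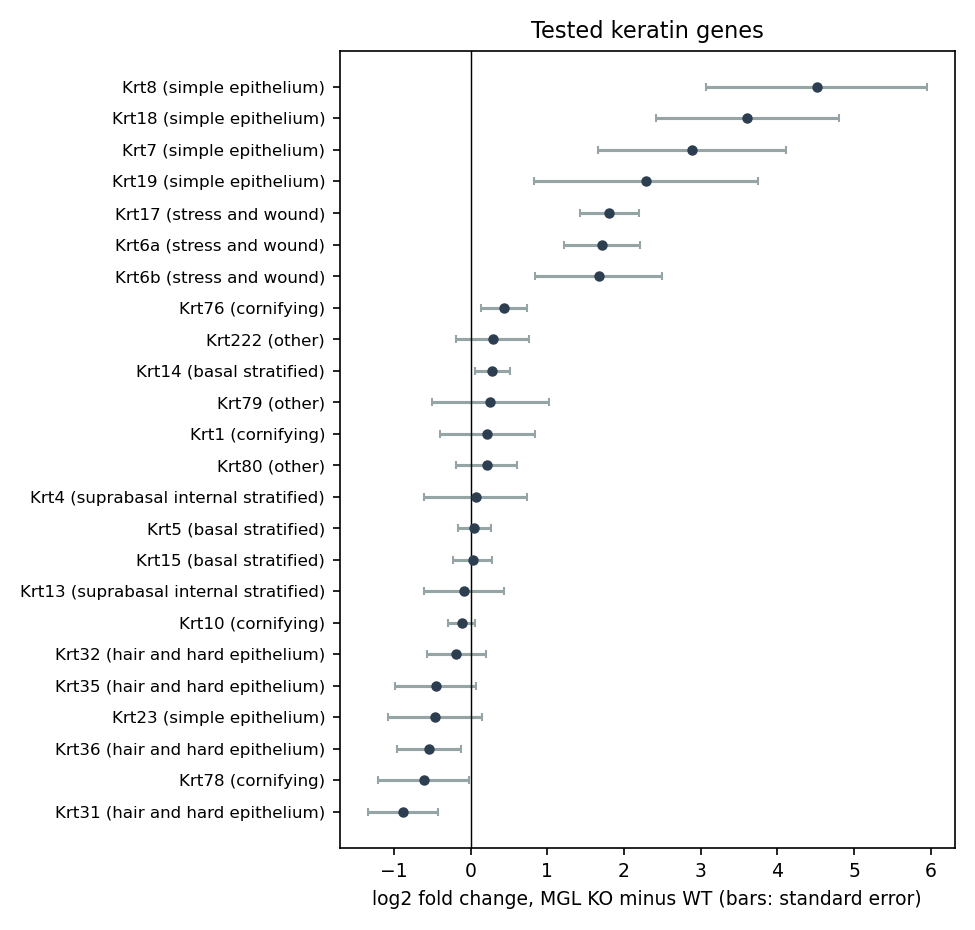
Log2 fold change of MGL KO over WT (horizontal axis) with its standard error (bars) for the 24 tested keratin genes (vertical axis, class in parentheses), from edgeR's quasi-likelihood fit. The 4 simple keratins at the top have the widest bars, the 3 stress keratins follow at 1.67 to 1.81, and the squamous keratins Krt4, Krt5, Krt15 and Krt13 lie within 0.1 of 0.

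The genes for proteins that anchor keratin filaments gave no call either. Of 15 genes for desmosomes and hemidesmosomes, 5 were higher and 10 lower in MGL KO, none passed the adjusted test, and the median log2 fold change was -0.12. The genes with the highest CPM, not corrected for length, were the plakin genes Plec and Dst and the hemidesmosomal collagen gene Col17a1, with log2 fold changes of -0.05 (SE 0.16), 0.04 (SE 0.13) and -0.46 (SE 0.23). Pkp2, a plakophilin of simple epithelium and heart, was picked after its values were seen as the only gene of the list with an unadjusted p under 0.05. It was at 7.41, 10.6, 5.61 and 15.5 CPM in MGL KO and at 3.85, 3.37, 6.25 and 5.02 CPM in WT, highest in MGL KO 4 and MGL KO 2 as were Krt8 and Krt18 (1.08, SE 0.34, adjusted p = 0.499).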

How the data were processed

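RNA-seq covered frozen esophagus tissue, with 4 libraries per genotype. The authors checked reads with FastQC 0.11.9, trimmed adapters with Cutadapt, aligned to GRCm39 with STAR 2.7.10b and deposited raw counts per gene symbol, without normalization. The annotation, the counting tool and its use of strand are not given in the sources used here. Groups came from the sample labels. Genes were kept by filterByExpr (minimum count 10, edgeR 4.0.16, R 4.3.3), and 14864 genes were tested by the quasi-likelihood test with TMM factors and Benjamini-Hochberg adjustment at 0.05. CPM used the summed counts of kept genes. Standard errors are the log2 fold change over the square root of F. Keratin ratios were compared by two-sided exact permutation tests. The exact test that the study's methods name, DESeq2 1.42.0, limma 3.58.1, other factors and filters, covariates, a replicate block and leave-one-out fits were alternatives. Scripts were tested on simulated data.

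Keratins with a mean of at least 5 CPM, an unadjusted p under 0.05 or non-overlapping groups were named, with the 3 most abundant genes of each marker list. The members, lists and tests were chosen with earlier results of these data known. The total count was 13.5 to 17.1 M per library, and limits from 3 counts cover counting error only. Within a group, no pair of libraries agreed within sampling noise (chi-square per degree of freedom at least 13.6). Exon lengths and positions came from GENCODE release 39, promoters from RefSeq on GRCm38.p6. The MGL KO and WT libraries share replicate numbers, but deviations of same-numbered libraries did not go together.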

Additional observations from a re-analysis of the deposited data

Results flagged for a closer look

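In 6 of the 50 sets of 4 libraries looked at for the named keratins and ratios, the highest or lowest library stood apart from the other three by Dixon's criterion, where chance gives about 1 in 20, or 2.5 sets. In MGL KO, replicate 4 stood apart high for Krt19 (158 CPM, next 5.20 CPM) and Krt7 (60.2 CPM, next 4.04 CPM). The same library stood apart for the ratio of Krt17 to Krt14 (0.0203, next 0.00816) and of Krt15 to Krt14 (2.17, next 1.68). In WT, replicate 3 stood apart low for Krt5 (1257 CPM, next 1992 CPM) and Krt15 (873 CPM, next 1306 CPM).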

How the results depend on the processing

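Of all genes, 7 were called by the quasi-likelihood test, 65 by the exact test on filtered genes, 42 by it on all counted genes, 137 by DESeq2, 25 by limma-voom with quality weights, 16 and 23 with the basal squamous and the muscle covariate, and 1285 at an unadjusted p under 0.05. There were 2 calls without a filter, without MGL KO 2 and WT 3, and without MGL KO 2 and 4, and 2 to 5 without 1 library. The share of calls that were higher in MGL KO was 42.9%, and 83.3% with library size alone. Of the keratins, none was called by the quasi-likelihood test and 1 by the exact test on filtered genes, DESeq2, limma-voom (Krt17) and with the basal covariate (Krt6a); 5 had an unadjusted p under 0.05; and leaving out 1 library gave 0 to 0.

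Same-numbered libraries of the groups did not deviate together (correlations -0.17, -0.31, -0.21 and 0.05), so they share only a number. With the replicate block there were 2 calls, no keratin among them, and the log2 fold change of Krt15 was -0.00048. The block gave 3.06 for Krt8, 2.46 for Krt18, 1.37 for Krt7 and 0.35 for Krt19. The block left the ratio of Krt6a to Krt5 at 1.62 and of Krt17 to Krt14 at 1.44, with an exact permutation p of 0.125, the smallest that 4 pairs allow.

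Both ratios also missed 0.05 without MGL KO 2 and WT 3 (1.67 and 1.75) and without MGL KO 2 and 4 (1.92 and 1.013), by exact permutation tests that could not reach 0.05 with so few libraries. Leaving out 1 library, with exact permutation p-values of 0.0286 or 0.0571, gave 1.38 to 1.91 for Krt6a over Krt5, 1.08 to 1.67 for Krt17 over Krt14. For Krt15 over Krt14 it gave -0.35 to -0.21, and for Krt13 over Krt14 -0.60 (without WT 3) to -0.088 (without WT 2). Krt4 over Krt5 turned to 0.15 and 0.58 in these 2 subsets (-0.37 to 0.43 without 1 library). Krt8 over Krt18 went from 0.62 with all libraries (exact permutation p = 0.343) to -0.015 without MGL KO 2 and 4 (0.28 to 1.09 without 1 library).

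Log2 fold changes turned for Krt13 (0.028 with the basal covariate), Krt15 (-0.11), Krt19 (-0.34), Krt4 (-0.28) and Krt5 (-0.032) with the muscle covariate. Without MGL KO 2 and 4, an alternative added after the data were seen, they were 0.40 for Krt13, -0.13 for Krt18, -0.96 for Krt19, 0.18 for Krt32 and -0.23 for Krt8. Leaving out 1 library gave -0.48 to 0.35 for Krt13, -0.10 to 0.22 for Krt15, -1.33 to 3.43 for Krt19, -0.44 to 0.16 for Krt32, -0.41 to 0.68 for Krt4, -0.088 to 0.18 for Krt5 and -0.033 to 0.64 for Krt80. Limma-voom with quality weights gave 1.27 for Krt8, 0.90 for Krt18, 1.06 for Krt7 and 0.18 for Krt19. The cause of these changes was not tested. Keratins under about 0.271 CPM could not be compared at this depth.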

Other observations

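MGL KO 2 was high in Krt8 and Krt18 but within the WT range for Krt7 (1.44 CPM) and Krt19 (1.26 CPM), and a set of other genes stood apart in the same library. These were picked after the data were seen, by their level in this library against the highest other library. Cdh16, a cadherin of kidney and thyroid epithelium, was at 12.3 CPM (at most 0.171 CPM elsewhere), the folate receptor gene Folr1 at 8.03 CPM (0.223 CPM) and the transcription factor gene Pax8 at 3.88 CPM (0.169 CPM). Hoxb9 was at 5.69 CPM (0.065 CPM), Sall1 at 4.69 CPM (0.065 CPM), Spp1, which encodes osteopontin, at 39.9 CPM (1.77 CPM) and Serpinb9d at 10.1 CPM (0 elsewhere). The class II histocompatibility gene H2-Ea was at 7.04 CPM there and at 0 in the other 7 libraries. Tg, the thyroglobulin gene, was at 0.0902 CPM in this library.

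WT 1, the highest WT library for Krt19, Krt8, Krt18 and Krt7, was also set apart by immunoglobulin genes, among them Ighm at 3821 CPM against at most 40.0 CPM elsewhere. MGL KO 4 was set apart by airway genes beyond the marker lists, such as Sec14l3 at 584 CPM (at most 2.02 CPM elsewhere), and by Myh6, a heart muscle myosin gene, at 1170 CPM (at most 9.06 CPM elsewhere).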
